A study of Arabidopsis thaliana with 12 samples.

Results

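Leaves of camta3-D plants treated with flg22 for 1 h were compared with camta3-D leaves inoculated for 4 h with Pseudomonas syringae pv. tomato (Pst) DC3000. The comparison used 6 of the 12 libraries of the series, 2 per treatment, chosen by genotype from their labels. camta3-D is an Arabidopsis thaliana line in the Col-0 background that carries a dominant mutant form of CAMTA3, a calmodulin-binding transcription factor, and all 6 libraries share that allele. The groups were camta3-D with 100 nM flg22 at 1 h, camta3-D with Pst AvrRpm1 at an OD600 of 0.001 at 4 h, and camta3-D with Pst AvrRps4 at the same density and time. The Col-0 wild-type groups with the same 3 treatments were used to ask whether the difference depended on the genotype. They also entered the filter, the scaling and the estimate of spread of the shared fit. Leaves of 4-week-old plants were infiltrated with a syringe, and each library pooled discs of 6 plants. Elicitor and time differ together here, as does the time since the leaf was wounded by the syringe, so their parts cannot be told apart. No mock-treated library was analysed, so "higher after flg22" means higher than after Pst and not induced by flg22.

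flg22 is a peptide of bacterial flagellin that the receptor kinase FLS2 binds at the cell surface. Binding leads within minutes to calcium influx, an oxidative burst, activation of mitogen-activated protein kinases and a wave of new transcripts, many of which are short-lived. AvrRpm1 and AvrRps4 are effectors that bacteria deliver into the cell, where AvrRpm1 is sensed by the intracellular receptor RPM1 through its partner RIN4 and AvrRps4 by the receptor pair RRS1 and RPS4. Pst bacteria also carry flagellin and other surface patterns. CAMTA factors bind the DNA sequence CGCG and have been reported to repress salicylic acid-dependent defence genes and to act in early wound and cold responses. The study calls it unclear whether they raise or lower transcription.

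Values are CPM, read counts divided by a library's total after scaling by TMM and set to a common total, and fold changes are log2 values from the edgeR quasi-likelihood fit, flg22 over Pst. The 6 libraries held 22769687 to 25237802 gene counts. Replicates lay closest together, with a root-mean-square log2 distance of 1.48 to 2.21 taken over the 500 genes that differed most in a pair. Libraries of the 2 Pst strains were 2.79 to 3.07 apart, and flg22 libraries were 4.38 to 5.35 from Pst libraries. AvrRpm1 replicate 2 stood apart from AvrRpm1 replicate 1 (2.21), lay nearer to the flg22 libraries (4.38 and 4.48) and had 7.78% of alignments that were not unique, against at most 3.43% in every other library. Without it, 4369 genes were higher and 4525 lower by the rule below. The TMM factors were 0.797 and 0.818 for flg22 and 1.04 to 1.12 for Pst. With library totals alone the median of all genes tested was -0.45 in place of -0.03, and 27.7% of the genes called were higher after flg22 in place of 49%, so directions are relative to the TMM scale.

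Most genes of pattern recognition, jasmonate and indole glucosinolates were higher after flg22, whereas among auxin and abscisic acid genes more were lower than higher. Of 19167 genes tested, 4740 (24.7%) were higher after flg22 than after each Pst strain and 4933 (25.7%) were lower (adjusted p under 0.05 against each strain, same direction). These 9673 genes are 50.5% of those tested, and in all but 2 of them the flg22 libraries did not overlap the 4 Pst libraries. Over all genes tested, the flg22 libraries lay above all 4 Pst libraries in 32.8% and below them in 34.7%. A difference of over 2-fold from each strain was met by 2803 genes (14.6%) that were higher and 2632 (13.7%) that were lower. Large differences leaned upward: against the mean of Pst, 436 of the genes called were over 16-fold higher and 146 were over 16-fold lower. Another 117 genes differed from the 2 strains in opposite directions.

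The genes that FLS2 signalling runs through were themselves among the higher transcripts. FLS2 (AT5G46330) had 972 and 1319 CPM after flg22, against 45.4 and 61.7 CPM after AvrRpm1 and 44.1 and 47.7 CPM after AvrRps4. It was 4.53 ± 0.16 (SE) higher against the mean of Pst on the log2 scale, with adjusted p = 3.4e-07 against AvrRpm1 and 2.9e-07 against AvrRps4. Of 38 tested genes of pattern recognition and kinase cascades, 33 were higher and 0 lower, with a median of 2.06, beside 24.7% and 25.7% and a median of -0.03 over all genes. The receptors EFR, which binds elongation factor Tu, CERK1, which senses chitin, and PEPR1, which binds danger peptides of the plant, were higher by 4.12, 2.98 and 4.25. The cytoplasmic kinase BIK1, which links receptors to the oxidase RBOHD, had 385 and 416 CPM after flg22, against 21.4 and 36.8 CPM after AvrRpm1 and 32 and 35 CPM after AvrRps4. The ubiquitin ligases PUB22 and PUB23, which dampen pattern-triggered signalling, were higher by 5.82 and 4.53. MPK3, MKK4, RIPK, PUB13 and MKP1 were the members not called.

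WRKY factors bind the W box and carry much of the defence transcription programme. Of 30 tested, 17 were higher (56.7%, beside 24.7% of all genes) and 2 lower (6.67%, beside 25.7%). The median was 2.89, and 3.19 without 4 members that held 3 counts or fewer per library in a condition. WRKY22 had 648 and 727 CPM after flg22, against 9.12 and 24.8 CPM after AvrRpm1 and 14.8 and 18.4 CPM after AvrRps4. WRKY17 and WRKY25 had the smallest p, at 4.40 ± 0.11 and 2.12 ± 0.09. WRKY18 and WRKY40, which can pair with each other, were higher by 4.23 and 3.92, while their partner WRKY60 was lower, with 0.266 and 0.466 CPM after flg22, against 4.51 and 4.82 CPM after AvrRpm1 and 2.33 and 2.31 CPM after AvrRps4. The other member that was lower was WRKY70, a factor of the salicylic acid branch, with 1.33 and 1.35 CPM after flg22, against 7.03 and 8.46 CPM after AvrRpm1 and 38.6 and 70.3 CPM after AvrRps4. Its call was lost when either flg22 library was left out (adjusted p = 0.072 and 0.073).

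Jasmonate, a hormone made from membrane lipids after wounding and attack, was represented along its whole pathway. Of 39 tested genes, 24 were higher (61.5%, beside 24.7% of all genes) and 5 lower (12.8%, beside 25.7%), with a median of 2.23. The lipoxygenase LOX3, which starts the pathway, had 1592 and 1696 CPM after flg22, against 9.55 and 31.5 CPM after AvrRpm1 and 13.6 and 13.8 CPM after AvrRps4, a difference of 6.62 ± 0.57. Both flg22 libraries were above every Pst library. The next enzymes were also higher, with allene oxide synthase (AOS) at 1218 and 1024 CPM after flg22, against 129 to 186 CPM in the Pst libraries, the cyclase genes AOC1 and AOC3 higher by 5.24 and 5.90, and the reductase OPR3 by 4.52 ± 0.20. JAR1, which makes the active conjugate with isoleucine, was higher by 1.85. CYP94C1 and CYP94B3, which inactivate that conjugate by oxidation, were higher by 6.66 and 5.68, and CYP94C1 had 965 and 1138 CPM after flg22, against 5.71 and 23.1 CPM after AvrRpm1 and 6.61 and 8.37 CPM after AvrRps4. The repressors JAZ1, JAZ5 and JAZ10 were higher by 4.43 to 5.26. The 5 genes that were lower were the jasmonate co-receptor COI1 (-1.13), the factor MYC4 (-2.94), the cyclase AOC4 (-2.07), the thiolase KAT2 (-0.75) and ST2A (-2.37), a sulfotransferase that acts on hydroxyjasmonate. AOC1 and AOC2 are near-identical, and how reads were shared between them is uncertain.

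Of 30 salicylic acid genes tested, 9 were higher (30%, beside 24.7% of all genes) and 2 lower (6.67%, beside 25.7%), and 19 were not called (median 0.50, and 0.78 without 6 members with 3 counts or fewer per library in a condition). The receptors NPR1 and NPR3 were higher by 1.48 and 2.54, and the lipase-like SAG101 by 3.06 ± 0.13, with 156 and 147 CPM after flg22, against 13.6 to 24.6 CPM in the Pst libraries. The NPR1 partner NIMIN2 was higher by 5.04. UGT74F2, which attaches glucose to salicylic acid, and EPS1, which acts in its synthesis, were lower, at -2.13 and -2.10, and the call of EPS1 was lost without flg22 replicate 2 (adjusted p = 0.14) and without AvrRps4 replicate 2 (0.089). PR1, a late marker of salicylic acid, had 1 count in AvrRpm1 replicate 2 and 0 counts in the other 5 libraries.

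Ethylene genes were called in 17 of 20 cases, beside 50.5% of all genes tested. Of the 20, 12 were higher (60%, beside 24.7%) and 5 lower (25%, beside 25.7%), with a median of 0.94. The synthases ACS2, ACS6, ACS7 and ACS8, which make the precursor of ethylene, were all higher, ACS7 with 22.2 and 22.6 CPM after flg22, against 0.213 and 0.553 CPM after AvrRpm1 and 0.535 and 0.526 CPM after AvrRps4. EBF2, an F-box protein that marks the factors EIN3 and EIL1 for degradation, was higher by 1.91 ± 0.11. EIN2, through which the ethylene signal passes from the endoplasmic reticulum to the nucleus, was lower, with 21.9 and 24.7 CPM after flg22, against 115 and 104 CPM after AvrRpm1 and 118 and 115 CPM after AvrRps4. EIL1 was lower by 1.16 on the log2 scale, at -1.16 ± 0.11.

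Abscisic acid and auxin genes leaned the other way. For abscisic acid, 4 of 22 genes were higher and 9 lower (median -0.88, beside -0.03 for all genes tested). The 4 that were higher were the receptor genes PYL4, PYL5 and PYL6 and the catabolic gene CYP707A3. PYL5 had 291 and 363 CPM after flg22, against 16.3 and 23.9 CPM after AvrRpm1 and 9.43 and 10.6 CPM after AvrRps4. Among those lower were the synthesis gene NCED3 (-1.73), the factor ABF3 (-2.19 ± 0.13), the homeobox gene HB7 (-3.54) and COR15A (-2.91), which encodes a chloroplast protectant. For auxin, 4 of 27 were higher (14.8%, beside 24.7%) and 12 lower (44.4%, beside 25.7%), with a median of -0.64. PIN3 and PIN7 of this list and PIN4 outside it, which carry auxin out of cells, were lower by 2.96, 4.24 and 3.10 on the log2 scale. PIN7 had 25 and 26.4 CPM after flg22, against 235 and 190 CPM after AvrRpm1 and 230 and 229 CPM after AvrRps4. The growth-related genes SAUR20 and SAUR24 were lower, at -4.93 and -3.68, and so was the importer AUX1 (-2.44). IAA2, IAA6, IAA19 and the receptor AFB2 were the 4 that were higher.

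Of 11 cytokinin genes, 5 were higher and 2 lower. The oxidase genes CKX4 and CKX5, whose products break cytokinin down, were higher by 3.70 and 3.96. BR6OX2, the enzyme of the last step to the brassinosteroid brassinolide, was lower, with 0.797 and 0.984 CPM after flg22, against 61.3 and 48.2 CPM after AvrRpm1 and 38 and 35.4 CPM after AvrRps4. Of 19 genes of cell wall loosening and cellulose synthesis, 6 were higher and 6 lower (median 0.14). Each share was 31.6%, beside 24.7% higher and 25.7% lower over all genes tested. The expansin genes EXPA1, EXPA3, EXPA6, EXPA8 and EXPA11, which loosen walls in growing cells, were lower, and EXPA5 was higher. The xyloglucan genes XTH18, XTH23 and XTH24 were higher by 5.53, 5.72 and 2.92. XTH18 had 603 and 640 CPM after flg22, against 2.73 and 11.3 CPM after AvrRpm1 and 21.2 and 30.5 CPM after AvrRps4. The median of this list was -0.28 on library totals alone and -0.06 without AvrRpm1 replicate 2.

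**Figure D1:**
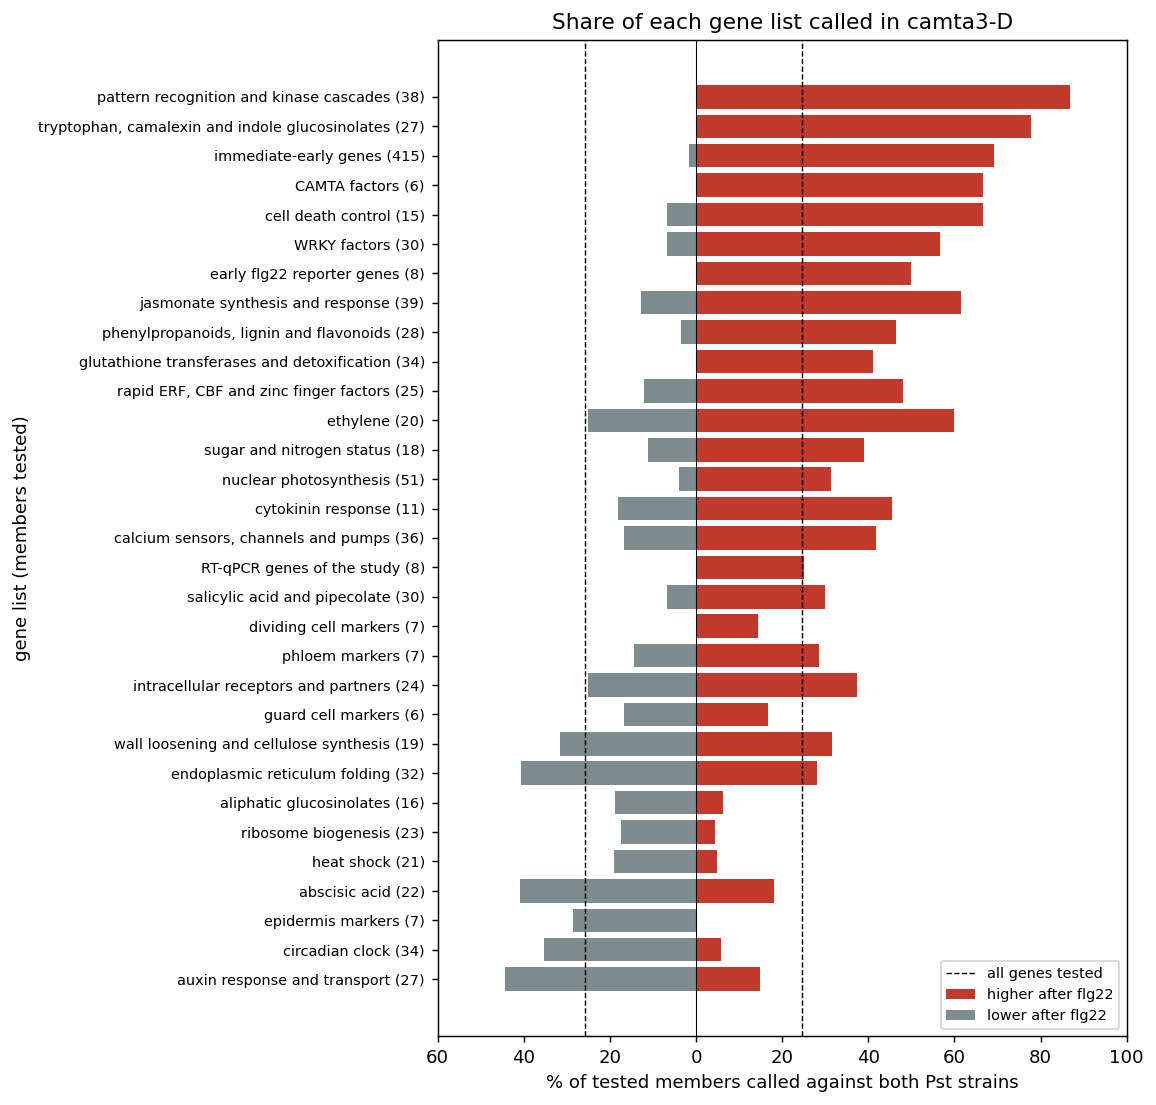
For each gene list, the share of tested members called against both Pst strains, higher after flg22 to the right and lower to the left, with the number of members tested in brackets. Dashed lines mark all genes tested, 24.7% higher and 25.7% lower. Pattern recognition stands at the top with 33 of 38 members higher, and auxin at the bottom with 12 of 27 lower.

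Chemical defence from tryptophan was higher throughout its early steps. Of 27 tested genes, 21 were higher (77.8%, beside 24.7% of all genes) and 0 lower (beside 25.7%), with a median of 1.99. They included the tryptophan enzymes ASA1, ASB1, PAT1, TSA1 and TSB1, the cytochromes CYP79B2 and CYP79B3 that make indole-3-acetaldoxime, and CYP83B1, which leads it into indole glucosinolates. The glutamyl peptidase GGP1 had 929 and 926 CPM after flg22, against 58.3 and 69.2 CPM after AvrRpm1 and 54.4 and 66.3 CPM after AvrRps4. PEN2, the myrosinase that activates indole glucosinolates at the site of attack, and the transporter PEN3 were higher by 3.46 and 3.28, and PEN3 reached 6431 and 6308 CPM after flg22, against 442 and 592 CPM after AvrRpm1 and 764 and 905 CPM after AvrRps4. PAD3 and CYP71A13, which act in the camalexin branch, were not called, at -0.04 and -0.32, and neither were the factors MYB34, MYB51 and MYB122. Aliphatic glucosinolate genes, from the methionine-derived branch, numbered 1 higher (6.25%, beside 24.7% of all genes) and 3 lower (18.8%, beside 25.7%) of 16. The regulator MYB28 (-2.35) was among those lower. The list median was -0.52, and 0.14, 0.10 and 0.10 without flg22 replicate 1, AvrRpm1 replicate 1 or AvrRps4 replicate 2.

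In the phenylpropanoid pathway, 13 of 28 genes were higher (46.4%, beside 24.7% of all genes) and 1 lower (3.57%, beside 25.7%), with a median of 1.02. The steps shared by lignin and soluble phenolics were higher, with PAL1, PAL2, C4H and 4CL1 at 3.43, 3.36, 3.56 and 3.36. PAL1 had 782 and 594 CPM after flg22, against 42.8 and 220 CPM after AvrRpm1 and 28.3 and 33.6 CPM after AvrRps4. CCR2, which turns the pathway toward lignin monomers, was higher by 4.82 ± 0.35. The flavonoid genes CHS, CHI, F3H and FLS1 were not called, and UGT78D1, which decorates flavonols with sugar, was lower (-2.60). Of 34 glutathione transferase and detoxification genes, 14 were higher (41.2%, beside 24.7%) and 0 lower (beside 25.7%), with a median of 1.70. They were led by GSTU5 (2.49 ± 0.15) and the glycosyltransferase gene UGT73B5 (4.03).

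Calcium genes were called in 21 of 36 cases, beside 50.5% of all genes tested. Of the 36, 15 were higher (41.7%, beside 24.7%) and 6 lower (16.7%, beside 25.7%), with a median of 1.14. CAX1, which moves calcium into the vacuole, was lower, with 26.8 and 24.9 CPM after flg22, against 468 and 460 CPM after AvrRpm1 and 451 and 467 CPM after AvrRps4. The 4 Pst libraries lay close together for both strains. The vacuolar pump ACA4 was also lower (-1.63), while the pumps ACA11 and ACA12 were higher, ACA12 by 5.58. Among sensors, the calmodulin CAM2 was higher by 3.31 ± 0.14 and the calmodulin-like TCH3 had 2703 and 2738 CPM after flg22, against 89.9 and 226 CPM after AvrRpm1 and 653 and 892 CPM after AvrRps4. Reads of calmodulin genes with near-identical coding sequence may be shared among them. The channel CNGC20 had 156 and 139 CPM after flg22, against 10.5 to 16.1 CPM in the Pst libraries, and the channel CNGC4 was lower, at -2.39.

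Of the 6 CAMTA genes, 4 were higher (66.7%, beside 24.7% of all genes) and 0 lower (beside 25.7%). CAMTA3 itself (AT2G22300) had 210 and 193 CPM after flg22, against 49.9 and 50.6 CPM after AvrRpm1 and 95 and 124 CPM after AvrRps4, a difference of 1.44 ± 0.14. Counts do not tell the mutant from the wild-type transcript. CAMTA1, AT3G16940 and AT1G67310 were higher by 0.65 to 1.03. In wild type the CAMTA3 difference was 1.24 ± 0.14, and the 2 genotypes did not differ by the interaction test (adjusted p = 0.70).

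The intracellular receptors that sense the effectors were also among the genes called. RPM1 had 148 and 165 CPM after flg22, against 13.7 and 19.9 CPM after AvrRpm1 and 13 and 14.8 CPM after AvrRps4, so the strain that RPM1 recognises and the one it does not gave similar values. RIN4 (1.26), RPS4 (1.02) and RRS1 (1.01) were higher as well, with flg22 libraries between 38.9 and 44.4 CPM and Pst libraries between 14.0 and 26.5 CPM over the 3 genes. RRS1 and RPS4 are neighbouring genes, and the strand setting of the counting was not stated. In the list of 24 such receptors and partners, 9 were higher (37.5%, beside 24.7% of all genes) and 6 lower (25%, beside 25.7%). The list median was 0.17, and -0.25 on library totals alone. ZAR1 was higher by 2.62, and the helper receptor ADR1 was lower, with 3.72 and 3.78 CPM after flg22, against 13 and 17.2 CPM after AvrRpm1 and 24.1 and 26.7 CPM after AvrRps4. Of 15 genes of cell death control, 1 was lower (6.67%, beside 25.7%) and 10 were higher (66.7%, beside 24.7%). They included the metacaspase genes MC1 and MC2 (2.32 and 4.42), NSL1 (3.45) and the MLO genes MLO2, MLO6 and MLO12, at 2.17, 4.91 and 5.42, which are known for making plants susceptible to powdery mildew. ACD6, an ankyrin protein that promotes salicylic acid signalling, was lower (-1.16), a call lost when either flg22 library or either AvrRps4 library was left out (adjusted p = 0.053 to 0.17).

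The genes with the largest differences were led by a transcription factor gene of the AP2/ERF type. AT1G22810 had 262 and 301 CPM after flg22, against 0.994 and 3.83 CPM after AvrRpm1 and 0.535 and 0.809 CPM after AvrRps4, a log2 difference of 7.80 ± 0.65. Next came AT5G12340, MAPKKK15, AT5G28610, SDR5, CYP94C1, the wall-associated kinase gene WAKL4, LOX3, FAMT, the protease gene AT5G48430, the RIN4-family gene AT3G07195, the protein phosphatase 2C gene AT1G07160, the leucine-rich repeat kinase gene AT1G51820, TMAC2 and the amino acid transporter gene LHT7, between 6.05 and 7.12. Within AvrRpm1, replicate 2 was above replicate 1 for all 15 of these genes, by most in AT5G48430, with 22.6 CPM in replicate 2 and 0.994 CPM in replicate 1.

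In the lower direction AT4G29905, an uncharacterised gene, had 0.744 and 0.725 CPM after flg22, against 65.5 and 66.7 CPM after AvrRpm1 and 49.3 and 19.1 CPM after AvrRps4, at -6.01 ± 0.47. The others, between -5.64 and -4.08, were BR6OX2, NCED4, ESE3, AT5G02760, AT2G03550, CYP71B26, EXPA11, HIS1-3, PIN4, LTP2, AT3G15570, CAX1, AT3G62550 and CSLB04. NCED4, a carotenoid-cleaving enzyme, had 3.4 and 5.23 CPM after flg22, against 164 and 100 CPM after AvrRpm1 and 227 and 232 CPM after AvrRps4. AT5G02760, another protein phosphatase 2C gene, had 2.39 and 2.64 CPM after flg22, against 77.2 to 102 CPM in the 4 Pst libraries. The names include a brassinosteroid enzyme, an expansin, an auxin carrier, a cellulose synthase-like gene and the lipid transfer gene LTP2. HIS1-3, a linker histone gene, differed between strains, with 58.4 and 57.2 CPM after AvrRps4 and 14.4 and 5.22 CPM after AvrRpm1.

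Short upstream sequences of 6 genes are shown because they carry, or lack, the W box and the CAMTA core in genes that the results turn on. They are the 250 bases before the annotated gene start in RefSeq TAIR10.1, read 5′ to 3′ on the gene's strand, with each W box core (TTGAC, or GTCAA on the other strand) and CAMTA core (CGCG) in capitals. AT1G22810 lies at chr1:8075038-8075287 on the minus strand and WAKL4 at chr1:5532048-5532297 on the plus strand, BON3 at chr1:2841719-2841968 (plus), FRK1 at chr2:8329945-8330194 (minus), AT5G03350 at chr5:816671-816920 (minus) and AT4G29905 at chr4:14627632-14627881 (minus).
AT1G22810: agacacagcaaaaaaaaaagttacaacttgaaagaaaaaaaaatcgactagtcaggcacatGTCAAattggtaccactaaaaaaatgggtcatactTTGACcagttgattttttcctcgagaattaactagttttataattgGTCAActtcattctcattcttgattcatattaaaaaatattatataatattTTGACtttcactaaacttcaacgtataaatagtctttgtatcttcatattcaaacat
WAKL4: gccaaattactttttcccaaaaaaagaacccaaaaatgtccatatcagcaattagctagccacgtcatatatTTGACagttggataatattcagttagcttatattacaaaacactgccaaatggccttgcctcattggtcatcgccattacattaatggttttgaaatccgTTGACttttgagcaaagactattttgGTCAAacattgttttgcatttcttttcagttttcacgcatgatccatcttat
BON3: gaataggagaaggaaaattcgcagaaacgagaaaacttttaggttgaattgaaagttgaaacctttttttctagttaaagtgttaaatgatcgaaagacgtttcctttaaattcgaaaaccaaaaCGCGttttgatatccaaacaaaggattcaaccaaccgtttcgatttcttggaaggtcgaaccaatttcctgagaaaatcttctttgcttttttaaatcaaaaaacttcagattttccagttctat
FRK1: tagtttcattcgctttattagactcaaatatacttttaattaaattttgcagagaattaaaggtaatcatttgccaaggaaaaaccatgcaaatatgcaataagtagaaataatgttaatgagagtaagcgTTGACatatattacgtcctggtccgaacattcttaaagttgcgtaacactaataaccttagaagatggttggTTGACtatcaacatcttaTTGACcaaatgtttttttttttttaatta
AT5G03350: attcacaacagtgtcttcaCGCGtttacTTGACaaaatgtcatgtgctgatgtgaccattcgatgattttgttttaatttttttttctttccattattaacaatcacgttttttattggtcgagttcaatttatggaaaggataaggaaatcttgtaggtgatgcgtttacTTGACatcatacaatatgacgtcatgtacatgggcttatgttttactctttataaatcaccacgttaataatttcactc
AT4G29905: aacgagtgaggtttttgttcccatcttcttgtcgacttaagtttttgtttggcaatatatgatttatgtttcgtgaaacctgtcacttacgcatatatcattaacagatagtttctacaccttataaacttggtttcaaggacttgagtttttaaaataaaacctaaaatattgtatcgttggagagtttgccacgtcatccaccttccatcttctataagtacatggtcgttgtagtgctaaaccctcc

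AT1G22810, with the largest difference, held 4 W box cores and WAKL4 held 3, and FRK1 also held 3 although it was not called. AT4G29905, the largest difference in the lower direction, held no core of either kind. Among the 2801 genes over 2-fold higher with upstream sequence, 56.8% had a W box core, against 37.8% of the 2631 genes over 2-fold lower and 44.9% of all genes tested. The CAMTA core CGCG was found in 15.8% of those higher, 7.79% of those lower and 11.1% of all. The longer CAMTA site ACGCGT, which contains the core, was found in 5.11% of those higher, 0.646% of those lower and 1.91% of all, and the rapid stress element CGCGTT in 5.93%, 1.48% and 2.95%. BON3 held ACGCGT with CGCGTT overlapping it on both strands. Site II elements (TGGGCC) were less common among the called genes, with 9.96% of those higher, 13% of those lower and 17.1% of all, and telo boxes (AAACCCTA) likewise, with 2.21%, 2.74% and 3.62%. Evening elements (AAATATCT) were found in 5.14%, 5.4% and 5.07%. The G box (CACGTG), the GCC box (GCCGCC) and the heat shock element (GAANNTTC) were also counted and are in the plot of motif shares. Matches were counted on both strands and are a description of letters, and not of binding. The genes called also differed in structure, with a single exon in 25.7% of those higher and 21.3% of those lower, against 16.5% of all genes tested, while the median transcript length was 1786, 1834 and 1752 nt.

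**Figure D2:**
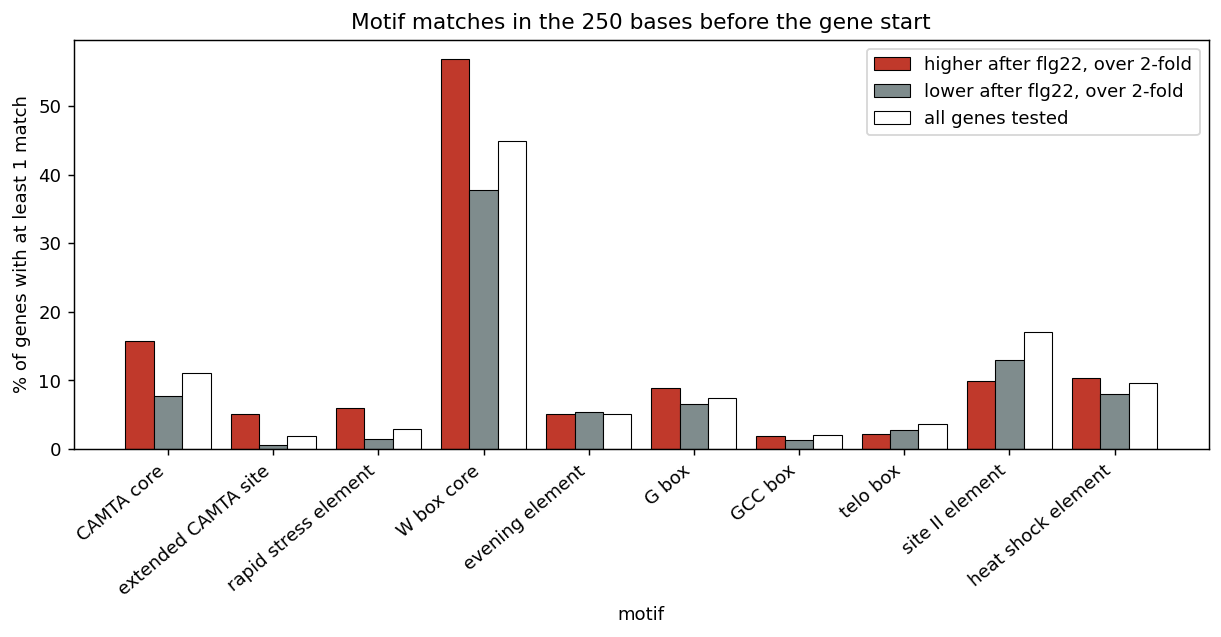
Share of genes with at least 1 match to each of 10 motifs in the 250 bases before the gene start, on either strand, for genes over 2-fold higher (red), over 2-fold lower (grey) and all genes tested (white). Bars for the W box core stand at 56.8%, 37.8% and 44.9%, and those for the extended CAMTA site at 5.11%, 0.646% and 1.91%.

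LTP2 had 8.03 and 32.5 CPM after flg22, against 334 and 384 CPM after AvrRpm1 and 435 and 364 CPM after AvrRps4. Markers of the epidermis were lower in 2 of 7 cases, LTP1 (-1.89) and PDF2 (-0.66), and higher in 0. The share that was lower, 28.6%, was near the 25.7% of all genes tested. The summed level of the 7 markers was 855 and 1100 CPM after flg22, against 1810 to 1960 CPM in the Pst libraries. LTP1 gave 239 and 343 CPM of that sum after flg22, against 1007 to 1167 CPM of it in the Pst libraries. Of the other epidermis markers, ATML1 and FDH were at 0.28 and 0.17 and not called. In bulk leaf tissue fewer cells of a type and less RNA per cell cannot be told apart, and the part of the epidermis in the LTP and expansin values was not tested. Guard cell markers were summed at 2180 and 2360 CPM after flg22, against 1500 to 1830 CPM in Pst libraries, mostly from TGG1 (0.47). Of the 6, 1 was higher and 1 lower, each 16.7%, beside 24.7% higher and 25.7% lower over all genes. The call of TGG1 was lost on library totals alone and without flg22 replicate 2 or either AvrRpm1 library. Phloem markers numbered 2 higher (28.6%, beside 24.7%) and 1 lower (14.3%, beside 25.7%) of 7. Both higher calls, SUC2 and SEOR1, were lost on library totals alone (adjusted p = 0.31 and 0.56). Of 7 dividing cell markers 1 was higher, TOPII (14.3%, beside 24.7%), and 0 lower. The call was lost in 6 settings, among them the fit of the 6 camta3-D libraries alone (adjusted p = 0.062). Without flg22 replicate 1 its log2 difference was 0.715.

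Among clock genes, which keep daily time, 2 of 34 were higher (5.88%, beside 24.7% of all genes) and 12 lower (35.3%, beside 25.7%). The median was -0.45. RVE7 had 1.06 and 0.673 CPM after flg22, against 15.7 and 12.8 CPM after AvrRpm1 and 31.7 and 25.4 CPM after AvrRps4. LNK1, PRR3, CDF1, ELF4 and GI were lower, at -1.98, -2.07, -2.81, -1.62 and -0.87, and TOC1 (0.80) and BOA (1.25) were higher. The core morning genes CCA1 and LHY were not called, at 0.41 and 0.68. The hour of day at harvest was not given, and with leaves sampled at 1 h and at 4 h it cannot be told apart from the treatment. The call of TOC1 was lost on library totals alone (adjusted p = 0.18).

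Nuclear genes of photosynthesis, which mark leaf tissue, summed to 251000 and 247000 CPM after flg22, against 194000 and 189000 CPM after AvrRpm1 and 241000 CPM in both AvrRps4 libraries. Differences were small, with 16 of 51 higher (31.4%, beside 24.7% of all genes) and 2 lower (3.92%, beside 25.7%). The median was 0.33, and -0.09 on library totals alone. RCA, which activates Rubisco, was higher by 0.84, and the small subunit gene RBCS3B by 0.97. The 2 that were lower were GUN4 (-2.78), a regulator of chlorophyll synthesis, and PORB (-1.16), which makes chlorophyllide in the light. Sugar transporters were higher, with STP1, STP4 and STP13 at 2.05, 3.37 and 2.77, and STP1 had 2149 and 3147 CPM after flg22, against 481 and 571 CPM after AvrRpm1 and 794 and 757 CPM after AvrRps4. The nitrate reductase gene NIA1 was lower, at -1.57, a call lost without AvrRps4 replicate 1 (adjusted p = 0.096).

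In some lists many members differed from 1 strain only. Over all 19167 genes tested, 885 were higher and 1087 lower than after AvrRpm1 only. Against AvrRps4 only, 1179 were higher and 1330 lower. The genes named in the following 3 paragraphs were picked after their values were seen, apart from FRK1. Of 32 genes for protein folding in the endoplasmic reticulum, 9 were higher than after both strains (28.1%, beside 24.7% of all genes). Another 13 were lower than after both (40.6%, beside 25.7%), and 7 more were lower than after AvrRpm1 only. The list median was -1.19 against AvrRpm1 and -0.20 against AvrRps4. The chaperone BIP2 had 57.4 and 49.9 CPM after flg22, against 159 and 255 CPM after AvrRpm1 and 58.6 and 55.4 CPM after AvrRps4. CNX1, CRT1A, BIP1 and ERDJ3B followed the same order, between -1.42 and -2.23 against AvrRpm1 and between -0.11 and -0.41 against AvrRps4. Of 21 heat shock genes, 1 was higher (4.76%, beside 24.7%), the factor HSFA4A (2.57), and 4 were lower (19%, beside 25.7%). Those lower included the chaperones Hsp70b (-1.67) and HSP101 (-1.76), and the heat shock median was -0.64. The 9 folding genes that were higher than after both strains included IRE1A, IRE1B, BZIP17, BZIP28 and BZIP60, sensors and transcription factors of the folding response, at 0.80 to 1.88.

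Ribosome biogenesis genes showed a like pattern at a smaller size, with 13 of 23 lower than after AvrRpm1 only, 4 lower than after both strains, and medians of -0.80 against AvrRpm1 and 0.03 against AvrRps4. The dyskerin gene CBF5 had 20.8 and 13.6 CPM after flg22, against 59 and 45.4 CPM after AvrRpm1 and 19.7 and 19.3 CPM after AvrRps4. Rapid ERF and zinc finger genes stood the other way round. Of 25 tested, 12 were higher (48%, beside 24.7%) and 3 lower (12%, beside 25.7%). Another 8 were higher than after AvrRpm1 only, and the medians were 3.08 against AvrRpm1 and 1.00 against AvrRps4. The 3 that were lower were CBF1, CBF2 and CBF3, the cold-response factors, and CBF3 had 0.106 and 0.414 CPM after flg22, against 9.19 and 12.9 CPM after AvrRpm1 and 13.9 and 10.2 CPM after AvrRps4. The zinc finger gene ZAT10 had 101 and 96.1 CPM after flg22, and was at 3.08 against AvrRpm1 and 0.62 against AvrRps4. MPK3, a central immune kinase, had 271 and 213 CPM after flg22, against 37.6 and 43.3 CPM after AvrRpm1 and 190 and 269 CPM after AvrRps4, and its flg22 and AvrRps4 libraries overlapped. WRKY33, a regulator of camalexin synthesis, showed the same order, at 3.02 against AvrRpm1 and 0.23 against AvrRps4.

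Opposite directions were seen in 82 genes that were higher than after AvrRpm1 and lower than after AvrRps4 and in 35 with the reverse. PAD4, a lipase-like partner of EDS1 that promotes salicylic acid signalling, had 28.7 and 23.9 CPM after flg22, against 5.47 and 8.81 CPM after AvrRpm1 and 62.8 and 115 CPM after AvrRps4. The asparagine synthetase gene ASN1, a marker of sugar starvation, had 119 and 144 CPM after flg22, against 25.6 and 21.6 CPM after AvrRpm1 and 855 and 435 CPM after AvrRps4. SARD1, which switches on salicylic acid synthesis, was lower than after AvrRps4 (-2.97) and was at 0.24 against AvrRpm1. FRK1, named for its response to flg22, had 17.1 and 26.2 CPM after flg22, against 19.9 and 126 CPM after AvrRpm1 and 3.02 and 4.98 CPM after AvrRps4, so that the AvrRpm1 libraries overlapped flg22 in part and AvrRpm1 replicate 2 was highest. Of the 8 genes used as early flg22 reporters, 0 were lower and 4 higher than after both strains (50%, beside 24.7% of all genes). The 4 were WRKY22, WRKY29, CYP81F2 and NHL10.

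**Figure D3:**
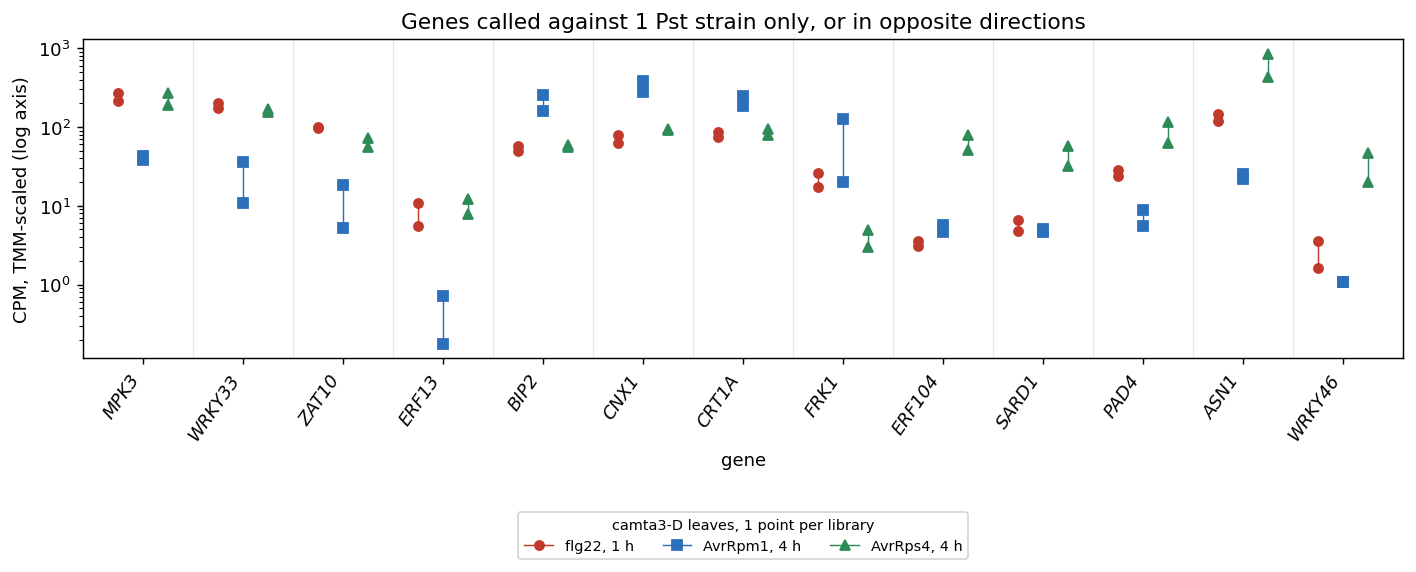
CPM of 13 genes in the 6 camta3-D libraries on a log axis, 1 point per library. After flg22 (circles) MPK3, WRKY33, ZAT10 and ERF13 lie near AvrRps4 (triangles) and above AvrRpm1 (squares), BIP2, CNX1 and CRT1A near AvrRps4 and below AvrRpm1, and PAD4 and ASN1 between the strains.

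Immediate-early genes respond to a stimulus without new protein synthesis, and their list was drawn up from other samples. Of 415 tested, 287 were higher (69.2%, beside 24.7% of all genes) and 7 lower (1.69%, beside 25.7%), with a median of 2.00. A further 67 were higher than after AvrRpm1 only and 2 higher than after AvrRps4 only, beside 885 and 1179 of all 19167 genes tested. Another 19 were lower than after AvrRps4 only, and 13 were higher than after AvrRpm1 but lower than after AvrRps4. The list medians were 2.44 against AvrRpm1 and 1.55 against AvrRps4. MUB4, a membrane-anchored ubiquitin-fold protein, had 184 and 187 CPM after flg22, against 10.8 and 13.7 CPM after AvrRpm1 and 14.8 and 16.4 CPM after AvrRps4. Of 8 genes also measured by RT-qPCR, AT4G39670 (3.69) and BON3 were higher than after both strains (25%, beside 24.7% of all genes). Among the others, 4 were higher than after AvrRpm1 only, 1 higher than after AvrRps4 only and 1 lower than after AvrRps4 only. BON3, a copine that restrains immune receptors in Arabidopsis, had 71 and 41 counts after flg22, against 0 and 1 after AvrRpm1 and 4 and 6 after AvrRps4.

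Whether the camta3-D allele altered the contrast was asked by comparing it with the same contrast in wild type, which shares no library with it. The interaction test was passed by 59 genes, 32 higher in camta3-D (0.167%) and 27 lower (0.141%), while 3103 had an unadjusted p under 0.05. In simulated data with changes planted in the camta3-D flg22 libraries, the test recovered 1.49% of 1.5-fold, 43.3% of 2-fold and 89.4% of 4-fold changes. Genes not called may therefore still differ between genotypes. DESeq2 called 354 and 280, and a replicate block, which keeps all 12 libraries, called 7 and 9. Whether these calls are stable cannot be told by leaving libraries out, since each such fit leaves 1 library in a group. FLS2 differed by 0.65 ± 0.23 between genotypes (4.53 in camta3-D and 3.88 in wild type, adjusted p = 0.21). The list medians in camta3-D and wild type were 2.06 and 2.36 for pattern recognition, 2.23 and 2.40 for jasmonate, and 2.00 and 2.42 for immediate-early genes. They lay further apart for the 8 RT-qPCR genes (2.25 and 4.90), the rapid ERF, CBF and zinc finger genes (1.98 and 2.96) and the early flg22 reporters (2.84 and 3.75). No member of these last lists passed the interaction test. Of the 415 immediate-early genes 5 passed, all lower in camta3-D, beside 27 of all 19167 genes tested. Differences between list medians were not tested.

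The largest interaction was that of AT5G03350, which encodes a legume lectin-type protein. In camta3-D it had 1.28 and 2.12 CPM after flg22, against 2.27 and 2.45 CPM after AvrRpm1 and 4.43 and 2.59 CPM after AvrRps4. In wild type it had 3.5 and 7.01 CPM after flg22, against 314 and 434 CPM after AvrRpm1 and 60.5 and 73.6 CPM after AvrRps4. The contrast was thus -0.76 in camta3-D and -4.92 in wild type, a difference of 4.16 ± 0.51 (adjusted p = 0.027), and the genotypes parted in the Pst libraries. Its upstream sequence, shown above, held the site ACGCGT. The other genes named for the smallest interaction p per direction held neither this site nor the CAMTA core CGCG in the same upstream stretch. Whether the site has a part in the difference between genotypes was not tested.

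In other genes the genotypes parted after flg22. CAF2, a chloroplast intron splicing factor, had 86 and 81.5 CPM after flg22 in camta3-D, against 99.4 to 153 CPM in camta3-D Pst libraries, whereas wild type had 17.7 and 14.4 CPM after flg22, against 84.5 to 95.2 CPM in wild-type Pst libraries. The receptor-like genes AT1G56520 and AT5G51630, both of the TIR-NBS-LRR class, had the reverse pattern, with contrasts of -1.63 and -1.13 in camta3-D and 1.18 and 1.36 in wild type. AT5G51630 had 3.14 and 2.43 CPM after flg22 in camta3-D, against 4.19 to 8.42 CPM in camta3-D Pst libraries, whereas wild type had 17.3 and 17.1 CPM after flg22, against 5.62 to 7.36 CPM in wild-type Pst libraries. The bHLH factor gene AT5G57150 had 13.4 and 12.3 CPM after flg22 in camta3-D, and 37.3 and 52.1 CPM after flg22 in wild type. Among kinases, AT1G11330 and PERK15 had contrasts of 2.07 and 1.05 in camta3-D and 0.24 and -0.91 in wild type, and CRK40 and LecRK-I.9 had -2.14 and 0.42 in camta3-D and -0.75 and 1.62 in wild type.

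**Figure D4:**
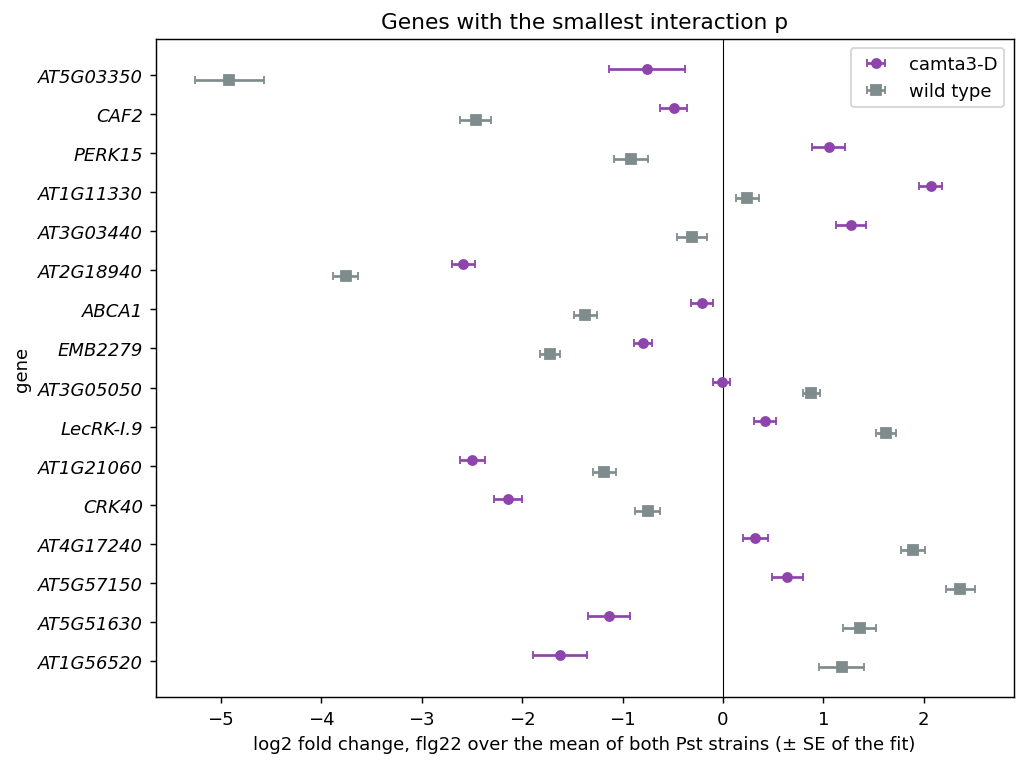
log2 fold change of flg22 over the mean of both Pst strains, with the SE of the fit, in camta3-D (circles) and wild type (squares) for the 16 genes with the smallest interaction p, 8 per direction. AT5G03350 is at -0.76 in camta3-D and -4.92 in wild type, and AT1G56520 is at -1.63 in camta3-D and 1.18 in wild type.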

How the data were processed

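Polyadenylated RNA of leaves was sequenced in 12 libraries. The deposited values were raw counts of reads per gene. Per the submitters' processing notes, the authors used FastQC (0.11.2), TopHat2 (2.0.10) and HTSeq with TAIR10. The strand setting and the treatment of reads shared by near-identical genes were not given in the sources used here. Libraries held 22769687 to 26303024 gene counts.

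Counts covered 32678 genes, and 5 closing lines of alignment totals were set aside. Genes passing filterByExpr (minimum count 10) were tested, 19167 in all. Counts were scaled by TMM and fitted with the edgeR (4.0.16) quasi-likelihood model in R (4.3.3), with 1 mean for each of the 6 groups, over all 12 libraries. p-values were Benjamini-Hochberg adjusted over all genes tested. With 2 libraries per group the spread is borrowed across groups and genes. The study describes 2 independent experiments, and whether a replicate number marks the same experiment in every group was not given in the sources used here.

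A gene was called where it differed from AvrRpm1 and from AvrRps4 (adjusted p under 0.05 each) in the same direction. Fold changes carry a prior count of 0.125, and genes with very few counts in a condition depend on it. Named genes were the 15 with the largest change per direction (at least 32 CPM, no overlap), the 2 smallest p per direction in each list, the 8 smallest interaction p per direction, and CAMTA3, FLS2, FRK1, RPM1, RRS1, RPS4 and RIN4. Other list members are given as examples, chosen after their values were seen. Members and lists were chosen with earlier results of these data known. Lists were described by counts and medians without a test, and p-values were not adjusted within lists. Gene names, positions and upstream sequence came from RefSeq TAIR10.1 (31912 loci matched, 766 did not). The motif count had been planned only for a ready promoter table, and was run on upstream sequence read from the genome in its place. The fit was tested on simulated data. Alternatives were median-ratio size factors, DESeq2 (1.42.0), no filter, a replicate block, the 6 camta3-D libraries alone, no organelle genes, stricter thresholds, the mean of Pst alone, each library left out, and, added after the data were seen, library totals without TMM.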

Additional observations from a re-analysis of the deposited data

Results flagged for a closer look

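The contrast of flg22 with Pst differed between camta3-D and wild type in 32 genes that were higher in camta3-D and 27 that were lower, by the interaction term of the edgeR fit at an adjusted p under 0.05. Differences are camta3-D minus wild type on the log2 scale. The 8 with the smallest p in the higher direction were AT5G03350 (4.16), CAF2 (1.97), PERK15 (1.97), AT1G11330 (1.83), AT3G03440 (1.58), AT2G18940 (1.17), ABCA1 (1.16) and EMB2279 (0.93). The 8 in the lower direction were AT1G56520 (-2.81), AT5G51630 (-2.49), AT5G57150 (-1.72), AT4G17240 (-1.57), CRK40 (-1.39), AT1G21060 (-1.32), LecRK-I.9 (-1.21) and AT3G05050 (-0.89). A fit with a library left out has 1 library in that group, so it could not show whether these 16 calls are stable. The replicate block, which keeps all 12 libraries, called 7 genes higher and 9 lower in place of 32 and 27. With 2 libraries per group no group was large enough to test a single library as an outlier.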

How the results depend on the processing

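Of 129 named genes called against both strains, 115 kept the call under every alternative run, and no named gene reversed. The alternatives include fits with a library left out, which have 1 library in that group here as well. The counts of genes over 2-fold stayed within 1.5 times under every alternative but library totals. Leaving out each camta3-D library gave 4149 to 4401 higher and 4136 to 4525 lower, 2660 to 2837 and 2441 to 2671 over 2-fold, 4785 to 5666 higher and 4953 to 5884 lower than after AvrRpm1, and 5201 to 5964 higher and 5401 to 6276 lower than after AvrRps4. At adjusted p under 0.01 and over 2-fold, 2567 were higher and 2350 lower. On library totals alone, 2981 were higher and 7800 lower (4360 over 2-fold lower), with 3512 higher and 9690 lower than after AvrRpm1 and 78 interaction genes higher in camta3-D, with the median gene moved by -0.42. Of 403 list medians over 31 lists and all settings, 27 moved by more than a yardstick, 17 of them on library totals. The yardstick was the SD of the list median over all pairs of an flg22 and a Pst library. It takes in the difference between the 2 Pst strains and is not a spread between replicates alone. Medians of photosynthesis and dividing cell markers that reversed from beyond it were counted apart from the 27. In all, 7 lists changed sign in some setting. On library totals these were photosynthesis (-0.0904), dividing cell markers (-0.0259), wall genes (-0.276), sugar and nitrogen genes (-0.0109), intracellular receptors (-0.248) and epidermis markers (-0.275), and with 1 library left out wall, aliphatic glucosinolate, sugar and nitrogen, epidermis and dividing cell genes. The median of dividing cell markers lay between -0.0323 and 0.461 with 1 library left out (negative without flg22 replicate 1). Interaction counts moved most, to 354 higher and 280 lower with DESeq2, 77 and 65 without the filter, 7 and 9 with the replicate block, and between 0 and 41 higher and between 0 and 65 lower with 1 library left out (0 and 0 without either camta3-D flg22 library). The cause was not tested. Replicate numbers did not pair the libraries (correlations of deviations -0.08, 0.06 and -0.04). With the replicate block, 4635 were higher and 4817 lower.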
